A study of Homo sapiens with 9 samples.

Results

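The genes described here are 52 named components of collagen and the extracellular matrix: the collagens, laminins and other structural proteins, the enzymes that cross-link or degrade them, the inhibitors of those enzymes and the receptors that bind the matrix. They were chosen by name, with earlier results of these data known, and all 52 were found among the 58735 genes of the deposited count table. A total of 49 had 10 or more counts summed over the 9 libraries, and 41 passed the filter on low counts and were tested. The cells were HEYA8, a human ovarian cancer line labelled as high-grade serous and of WT genotype. Cells were treated for 24 h with compound 32, known here by its code name alone, with sunitinib, a drug that blocks several receptor tyrosine kinases, or with DMSO, the solvent control. Each group had 3 libraries, all carrying the batch label Day 1, and no sample received cisplatin, the drug named in the title of the series. Neither the doses nor any relation of compound 32 to sunitinib is stated in the labels. Each difference is therefore between the treatments as they were applied. All cells were of 1 line in culture, so the fibroblasts of a tumour were not part of the model.

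The extracellular matrix is built from collagen trimers, laminin networks and fibronectin fibrils that cells secrete and then remodel. Lysyl oxidases cross-link collagen and elastin outside the cell. Urokinase (PLAU), held at the surface by its receptor PLAUR, turns plasminogen into plasmin, and the membrane-bound metalloprotease MMP14 cuts collagen and activates pro-MMP2. TIMP proteins inhibit the metalloproteases. Integrins and CD44 attach the cell to the matrix, and in ovarian cancer such contacts take part in spread over the peritoneum.

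The sequence upstream of the start is shown first for LOX, PLAUR and MMP14, because the test called them higher with compound 32 and lower with sunitinib. The stretch between COL4A1 and COL4A2 is shown because the RefSeq starts of those genes lie back to back. The windows are 250 bases, or 126 bases between the collagen genes, upstream of the RefSeq start in GRCh38.p14, printed 5′ to 3′ on the strand of the gene. For LOX the window was chr5:122078260-122078509 on the minus strand, for PLAUR chr19:43670170-43670419 on the minus strand and for MMP14 chr14:22836335-22836584 on the plus strand. The collagen stretch was chr13:110307158-110307283, printed on the plus strand, which is the strand of COL4A2. Windows follow RefSeq starts. The GENCODE 29 models used for counting start elsewhere, so that the LOX and MMP14 windows hold their GENCODE 29 starts and the PLAUR window lies wholly inside its GENCODE 29 gene. In GENCODE 29 COL4A1 starts at 110307233 on the minus strand and COL4A2 at 110305812 on the plus strand, so the 2 genes overlap. The collagen stretch thus lies wholly inside the COL4A2 gene and holds the GENCODE 29 start of COL4A1. Capitals mark ACGTG, the core of the hypoxia response element, on either strand in LOX and MMP14, the AP-1 site TGANTCA in PLAUR and a GC box, GGGCGG, in the collagen stretch.
LOX: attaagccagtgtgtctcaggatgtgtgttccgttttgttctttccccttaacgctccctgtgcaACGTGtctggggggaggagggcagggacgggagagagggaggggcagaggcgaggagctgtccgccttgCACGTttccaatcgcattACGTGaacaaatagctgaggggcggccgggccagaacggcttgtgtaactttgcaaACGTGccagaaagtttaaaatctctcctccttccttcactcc
PLAUR: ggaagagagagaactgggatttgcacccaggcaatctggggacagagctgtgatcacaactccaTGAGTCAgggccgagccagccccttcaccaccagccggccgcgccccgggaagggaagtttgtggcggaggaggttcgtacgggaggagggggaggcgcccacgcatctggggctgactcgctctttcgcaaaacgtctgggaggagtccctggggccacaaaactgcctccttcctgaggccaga
MMP14: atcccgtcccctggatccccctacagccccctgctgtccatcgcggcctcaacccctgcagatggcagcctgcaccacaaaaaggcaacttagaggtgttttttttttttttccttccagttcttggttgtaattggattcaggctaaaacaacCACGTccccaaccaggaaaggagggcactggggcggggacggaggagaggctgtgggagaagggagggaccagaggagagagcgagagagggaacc
COL4A1 and COL4A2: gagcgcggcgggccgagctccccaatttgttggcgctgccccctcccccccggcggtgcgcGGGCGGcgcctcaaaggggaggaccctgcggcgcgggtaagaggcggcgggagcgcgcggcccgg

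The 3 motifs above, the TEAD site (CATTCC) and the TATA box (TATAAA) were searched on both strands. No matches of different motifs overlapped in the LOX, PLAUR or MMP14 windows. The LOX window held 4 copies of ACGTG. At least 1 copy was present in 18.6% of the 27305 RefSeq promoter windows of the same length, and 4 or more in 0.71%. MMP14 had 1 copy of ACGTG. The LOX and MMP14 windows also held 1 GC box each, not marked above. PLAUR had 1 match to TGANTCA, a motif found in 6.57% of windows. In 250 bases upstream of their own starts, COL4A1 held 2 GC boxes and COL4A2 held 1, and 42.2% of all windows held at least 1. Promoter windows matched by symbol for 37 of the 52 matrix genes, and 8 of these 37 (21.6%) held ACGTG. The GC box was in 25 (67.6%), the TEAD site in 8 (21.6%), the TATA box in 5 (13.5%) and TGANTCA in 2 (5.41%). Over all windows the TEAD site was in 12.0% and the TATA box in 11.2%. A match describes the letters and does not show that a factor binds there.

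Library totals ran from 15742908 to 17045113 counts with compound 32, from 15498101 to 18006171 with sunitinib and from 15585347 to 16948191 with DMSO. Sunitinib replicate 3 stood apart from its group. Set against sunitinib replicates 1 and 2, its chi-square of counts over genes, divided by the degrees of freedom, was 41.3 and 40.3, while every other pair of replicates gave 1.82 to 3.04. Ribosomal protein genes took 7.57% of its counts and mitochondrial genes 4.71%, against 4.14 to 4.99% and 3.05 to 3.44% in the other 8 libraries. The 52 matrix genes took 0.918% of its counts, compared with 1.10 to 1.11% in the compound 32 libraries, 1.10 and 1.11% in the other sunitinib libraries and 0.997 to 1.02% in the DMSO libraries. The counts of calls, and each matrix gene whose call differs, are therefore given with and without this library.

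The labelled cell type was checked against marker genes. PAX8, a transcription factor of serous ovarian carcinoma, lay between 114 and 136 CPM (counts scaled to library size with TMM factors) in all 9 libraries. MUC16, FOLR1 and CDH1, which epithelial ovarian tumours often carry, had 7, 5 and 3 counts over the 9 libraries. KRT8 and KRT18 were between 321 and 905 CPM, and the mesenchymal filament VIM was at 3289 CPM or more in every library. Of 8 fibroblast markers, DPT and PI16 were at 0, PDGFRA, THY1 and TCF21 had 19, 25 and 9 counts in all, and the summed level of the list was 16.0 to 18.6 CPM with compound 32, 23.0 to 24.3 CPM with sunitinib and 16.0 to 17.0 CPM with DMSO. Most of that sum came from ACTA2 and FAP, which differed in opposite directions with sunitinib. ACTA2 was at 17.9 to 19.4 CPM with sunitinib and 8.63 to 9.79 CPM with DMSO. FAP was at 3.49 to 4.53 CPM with sunitinib and 5.97 to 6.84 CPM with DMSO. With compound 32, ACTA2 was at 8.95 to 11.6 CPM and FAP at 4.66 to 6.82 CPM. Endothelial markers summed to 8.79 to 10.0 CPM with compound 32, 16.2 to 19.5 CPM with sunitinib and 10.2 to 12.7 CPM with DMSO, of which CDH5 was 4.46, 4.01 and 3.82 CPM with compound 32, 15.3, 14.6 and 11.4 CPM with sunitinib and 6.42, 8.21 and 7.46 CPM with DMSO. EMCN, a further endothelial marker, had 3 counts. Blood cell markers, which were leukocyte genes and the red cell gene HBB, summed to 0.388 to 1.31 CPM with compound 32, 0.372 to 1.496 CPM with sunitinib and 0.643 to 1.36 CPM with DMSO, with HBB at 0 and 1 count of PTPRC. KRT7, an epithelial keratin, was at 64.0, 64.3 and 70.2 CPM with compound 32, 215, 226 and 231 CPM with sunitinib and 66.0, 75.4 and 75.3 CPM with DMSO. KRT8 was at 838 to 905 CPM with compound 32, 627 to 647 CPM with sunitinib and 679 to 717 CPM with DMSO. In the same order, KRT18 was at 421 to 462, 321 to 394 and 345 to 383 CPM. WT1, a serous marker, was at 9.44 to 11.4, 4.71 to 5.46 and 10.9 to 13.1 CPM. The markers EPCAM, KRT19, ESR1, SOX17, MSLN, CLDN3 and CLDN4 had 225, 97, 38, 519, 106, 86 and 117 counts over the 9 libraries. The part of these marker differences in the results below was not tested. In bulk RNA, fewer cells of a type and less RNA per cell cannot be told apart.

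With compound 32, genes for a collagen cross-linker (LOX), the urokinase system (PLAU and PLAUR) and the collagen COL5A1 rose, and TNC and LAMB1 fell. The collagens COL7A1, COL4A1 and COL1A1 were also called higher. With sunitinib, the laminin chains LAMB3 and LAMA5, COL5A1, COL13A1 and TIMP1 rose, while VCAN, MMP14, PLAUR and LOX fell. The calls of COL7A1, COL4A1 and COL1A1 with compound 32 and of LAMA5 with sunitinib were lost when certain single libraries were left out, as given below. Tests were edgeR's quasi-likelihood F test on all 15232 genes that passed the filter, with Benjamini-Hochberg adjustment over all of them, and a gene was called at an adjusted p under 0.05. Each log2 fold change is given ± its SE. P-values measure the spread between these libraries, which may be technical for compound 32, where the labels do not say that the samples came from separate cultures.

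Of the 41 tested matrix genes, 12 rose and 2 fell with compound 32 against DMSO, where 12% of all genes tested rose and 10.3% fell. Without sunitinib replicate 3 the same comparison called 21 higher and 6 lower, against 21.6% and 20.5% of all genes. The count of higher genes was 6 without compound 32 replicate 2 (7.79% of all genes), 7 without DMSO replicate 1 (7.68%) and 7 without DMSO replicate 2 (7.67%). With sunitinib against DMSO, 8 rose and 6 fell, where 20.3% of all genes rose and 19.9% fell. Without replicate 3 the counts were 15 higher and 10 lower, against 25.1% and 26.3% of all genes. With upper-quartile factors that comparison gave 9 higher and 4 lower, against 25.9% and 15.2% of all genes, and with library totals alone 8 and 4, against 24.1% and 15.9%. For compound 32 against sunitinib, 11 were higher and 7 lower, where 24.1% of all genes were higher and 25.2% lower. Without replicate 3 these were 16 and 11, against 29.7% and 29% of all genes. With upper-quartile factors they were 10 and 11, against 19.7% and 30.9% of all genes, and with library totals alone 9 and 10, against 20.3% and 29.3%. The median log2 fold change of the 41 was 0.17 with compound 32, −0.02 with sunitinib and 0.11 between the compounds, and over all genes tested −0.00, 0.02 and −0.03. Without sunitinib replicate 3 the medians of the 41 were 0.17, 0.04 and 0.09. Both comparisons against DMSO share the 3 DMSO libraries. Because the genes were chosen with earlier results of these data known, a difference from the shares of all genes is no test of the set.

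By pattern of calls with all 9 libraries, COL5A1, LOXL2 and MMP2 rose with both compounds, and none of these 3 was called between the compounds. LOX, MMP14 and PLAUR rose with compound 32, fell with sunitinib and differed between the compounds. COL1A1, TGFBI, PLAU and ITGA5 rose with compound 32, were not called with sunitinib, and were also higher with compound 32 than with sunitinib, and COL4A1 and COL7A1 rose with compound 32 without a call between the compounds. LAMB1 and TNC fell with compound 32 and were lower than with sunitinib. COL13A1, LAMA5, LAMB3 and THBS2 rose with sunitinib and were lower with compound 32 than with sunitinib, and TIMP1 rose with sunitinib without any other call. VCAN, COL12A1 and MMP9 fell with sunitinib, VCAN also differing between the compounds. COL4A2, COL6A1 and THBS1 were higher, and COL6A3 lower, with compound 32 than with sunitinib without a call against DMSO, and 15 genes were called in no comparison. Shares of these patterns over all genes tested are not given here, so the patterns only describe the matrix genes.

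Several genes were called only when sunitinib replicate 3 was left out, here with their log2 fold changes in that fit. With compound 32 against DMSO these were, higher, COL4A2 (0.28), COL6A1 (0.28), COL6A2 (0.17), FBN1 (0.34), FBN2 (0.23), THBS1 (0.41), SPARC (0.12), TIMP1 (0.28) and TIMP2 (0.12), and, lower, COL5A2 (−0.25), COL6A3 (−0.89), LAMA5 (−0.15) and FN1 (−0.16). With sunitinib against DMSO they were, higher, COL4A1 (0.26), COL4A2 (0.10), COL18A1 (0.49), COL6A2 (0.19), COL7A1 (0.40), FBN1 (0.25) and LOXL1 (0.36), and, lower, COL1A1 (−0.88), THBS1 (−0.16), PLAU (−0.10), CD44 (−0.09) and ITGB1 (−0.09), while the MMP9 call was lost. Between the compounds they were, higher, COL4A1 (0.13), FBN2 (0.13), SPARC (0.16), TIMP2 (0.09) and CD44 (0.12), and, lower, COL5A1 (−0.50), COL5A2 (−0.28), LOXL1 (−0.41) and LOXL2 (−0.14). Every other call was the same in both fits. The changes with sunitinib or between the compounds that lie near 0.10 are about as large as a shift from scaling alone. With upper-quartile factors and all 9 libraries, the median over all genes shifted by 0.08 with sunitinib and by −0.09 between the compounds.

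**Figure D1:**
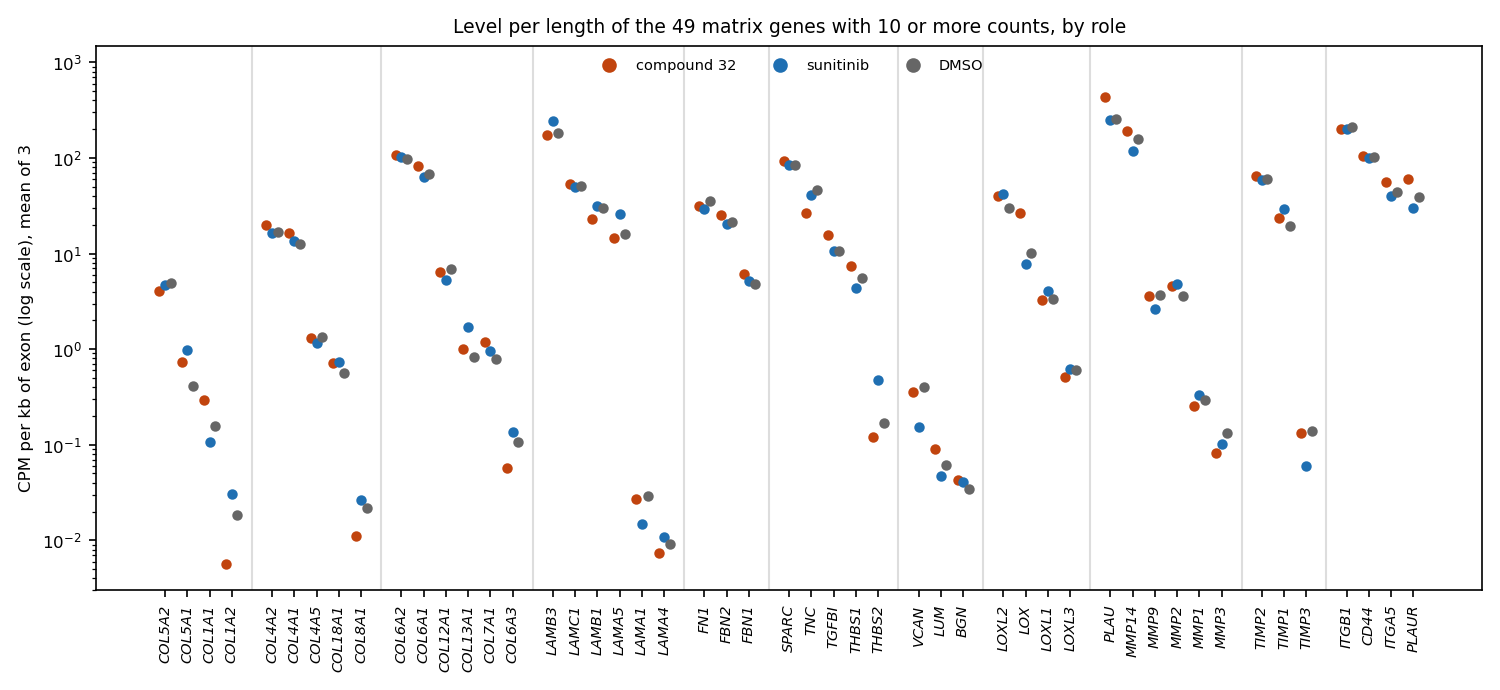
Mean level per length of the 49 matrix genes with 10 or more counts, in CPM per kb of the deposited gene length on a log axis, by role, for compound 32, sunitinib and DMSO (n = 3 each). Levels span from PLAU, at 256 CPM per kb with DMSO, to LAMA4, at 0.00906 CPM per kb with DMSO.

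Levels per length, CPM divided by the deposited gene length in kb, allow genes to be compared. The highest gene was PLAU, at 435 ± 6.76 with compound 32, 249.9 ± 19.4 with sunitinib and 256 ± 7.31 with DMSO (SD, n = 3 each, in CPM per kb). The highest cell surface receptor was ITGB1, at 201 ± 5.86 with compound 32, 202 ± 8.72 with sunitinib and 209.6 ± 1.39 with DMSO. LAMB3, the highest laminin, was at 175 ± 3.06 with compound 32, 242 ± 28.6 with sunitinib and 181 ± 2.63 with DMSO. Other structural genes lay over a wide range below these. COL6A2 was the highest collagen, at 108 ± 2.29 with compound 32, 101 ± 15.9 with sunitinib and 96.6 ± 1.61 with DMSO. SPARC was the highest matricellular protein, at 92.0 ± 2.52 with compound 32, 85.1 ± 4.03 with sunitinib and 84.5 ± 1.97 with DMSO. TIMP2, the highest inhibitor, was at 64.8 ± 0.664 with compound 32, 58.8 ± 4.08 with sunitinib and 59.5 ± 1.16 with DMSO. FN1 was at 31.4 ± 1.79 with compound 32, 29.1 ± 5.02 with sunitinib and 35.2 ± 2.28 with DMSO. LOXL2, the highest lysyl oxidase, was at 40.3 ± 0.446 with compound 32, 42.1 ± 4.23 with sunitinib and 29.8 ± 1.71 with DMSO. Among basement membrane collagens COL4A2 was highest, at 20.1 ± 0.118 with compound 32, 16.3 ± 2.71 with sunitinib and 16.6 ± 0.710 with DMSO. The fibrillar collagens, the bulk of connective tissue, lay below these levels. COL5A2, the highest of them, was at 4.10 ± 0.276 with compound 32, 4.69 ± 0.526 with sunitinib and 4.86 ± 0.161 with DMSO. COL1A1 was at 0.296 ± 0.0808 with compound 32, 0.107 ± 0.0394 with sunitinib and 0.156 ± 0.0235 with DMSO and COL1A2, with 29 counts in all, was lower still. VCAN, the highest matrix proteoglycan, was at 0.359 ± 0.0662 with compound 32, 0.154 ± 0.0118 with sunitinib and 0.399 ± 0.00819 with DMSO. Among neighbours in the DMSO order, COL5A2 and FBN1, at 4.86 ± 0.161 and 4.85 ± 0.324 CPM per kb, did not differ beyond their SDs.

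Of 4 lysyl oxidases, 2 rose with compound 32, and with sunitinib 1 rose and 1 fell. Over all genes tested, 12% rose with compound 32, and 20.3% rose and 19.9% fell with sunitinib. LOX, which cross-links collagen and elastin (ENSG00000113083, chromosome 5, 122063195 to 122078360, minus strand, GENCODE 29 on GRCh38), had the largest change of any tested matrix gene with compound 32. It was at 147, 142 and 151 CPM in the compound 32 libraries, 45.9, 40.7 and 43.1 CPM in the sunitinib libraries and 58.4, 58.7 and 51.3 CPM in the DMSO libraries. The compound 32 libraries lay above all others, and the sunitinib libraries below all others. LOX was 2.61-fold higher with compound 32 (log2 fold change 1.38 ± 0.07, adjusted p = 3.87e-07) and 1.30-fold lower with sunitinib (log2 fold change −0.38 ± 0.08, adjusted p = 0.00225). Between the compounds the difference was 1.76 ± 0.08 (adjusted p = 1.51e-08). LOXL2, which also cross-links collagen, was at 229, 228 and 233 CPM with compound 32, 252, 257 and 213 CPM with sunitinib and 159, 173 and 178 CPM with DMSO, and both treated groups lay above DMSO in every library. It rose with compound 32 (log2 fold change 0.44 ± 0.08, adjusted p = 0.00252) and with sunitinib (log2 fold change 0.50 ± 0.08, adjusted p = 4.76e-04), and between the compounds was at −0.06, 95% interval −0.24 to 0.11, and −0.14 (adjusted p = 0.00443) without sunitinib replicate 3. LOXL1, at 12.2, 9.39 and 13.7 CPM in the compound 32 libraries, 15.1, 16.2 and 12.9 CPM in the sunitinib libraries and 11.4, 12.2 and 13.1 CPM in the DMSO libraries, and LOXL3 were not called in any comparison with all libraries. Exons of LOXL3 overlap those of HTRA2 over 14.3% of its length and LOXL1 overlaps LOXL1-AS1 over 9.21%. The labels do not say whether counting used strand, so shared reads cannot be told apart. LOX overlaps SRFBP1 over 2.49%.

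**Figure D2:**
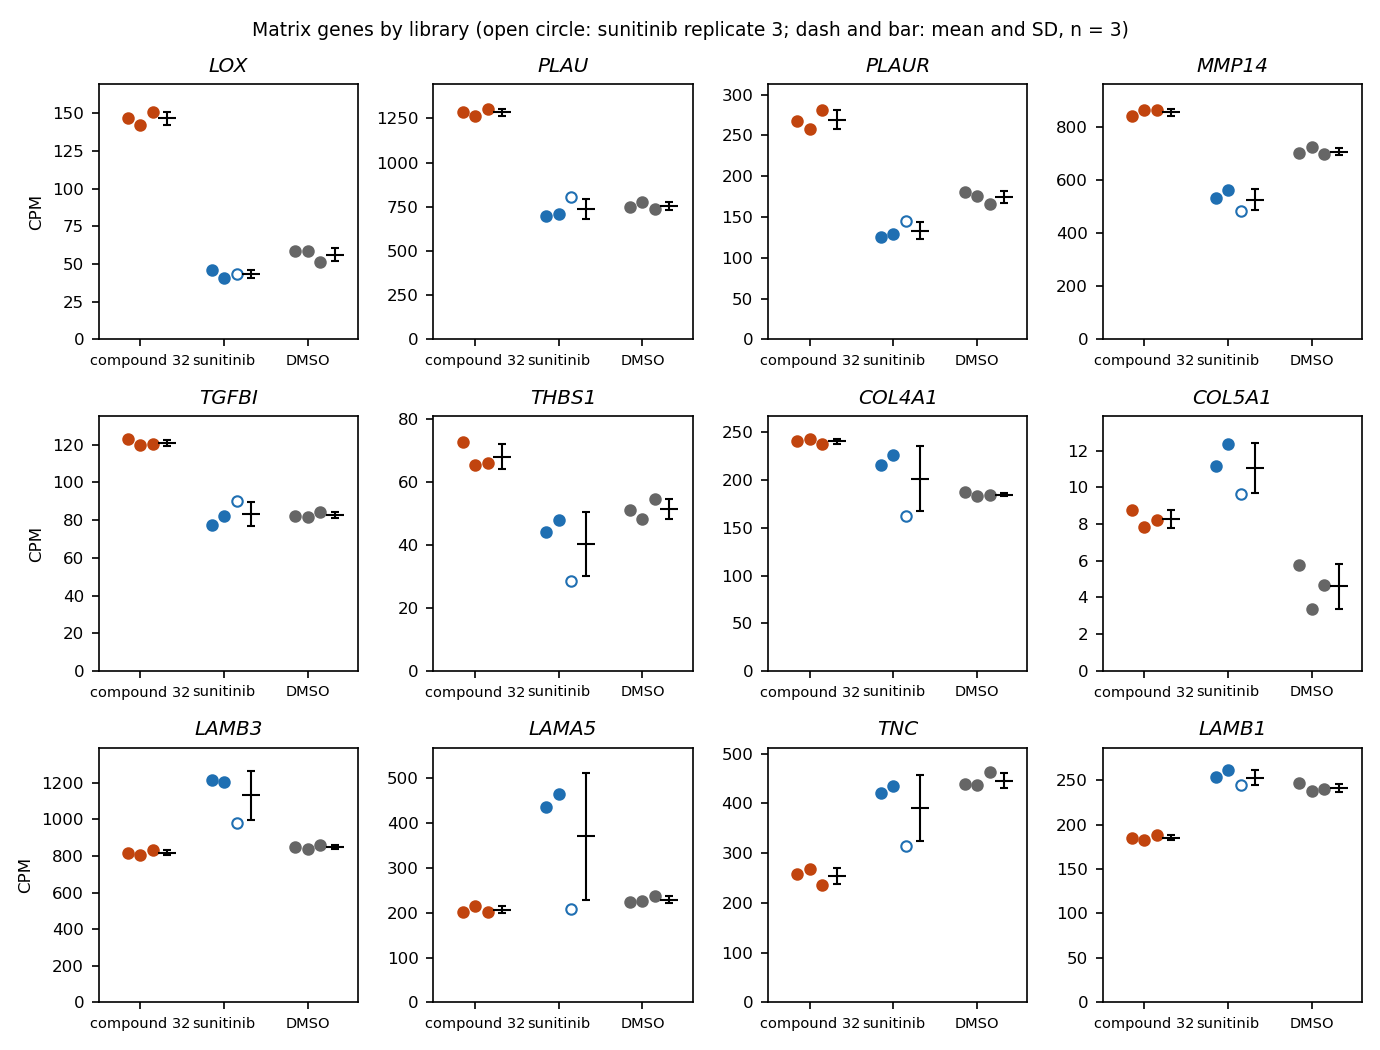
CPM of 12 matrix genes in each library, for compound 32, sunitinib and DMSO, with the mean and SD (n = 3) beside the points and sunitinib replicate 3 as an open circle. LOX in the 3 compound 32 libraries lies between 142 and 151 CPM, above every other library, and LAMA5 in sunitinib replicate 3 lies at 208 CPM, below 437 and 465 CPM in replicates 1 and 2.

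Of 5 proteases, 3 rose with compound 32, and with sunitinib 1 rose and 2 fell. The shares of all genes tested were 12% higher with compound 32, and 20.3% higher and 19.9% lower with sunitinib. PLAU (ENSG00000122861, chromosome 10, 73909177 to 73917497, plus strand) was at 1284, 1264 and 1303 CPM with compound 32, 698, 711 and 803 CPM with sunitinib and 751, 779 and 736 CPM with DMSO. All compound 32 libraries lay above all others, and the sunitinib and DMSO libraries overlapped. It rose with compound 32 by 1.70-fold (log2 fold change 0.77 ± 0.07, adjusted p = 2.69e-05), while with sunitinib the log2 fold change was −0.03 ± 0.07 (adjusted p = 0.731). Without replicate 3, its highest sunitinib library, PLAU was called lower with sunitinib (−0.10, adjusted p = 0.0128). Between the compounds it was 0.80 ± 0.07 (adjusted p = 4.37e-06). Its exons overlap those of C10orf55 over 31.1% of its length, a gene with a mean of 1.94 CPM against 921 CPM for PLAU. PLAUR, the urokinase receptor (ENSG00000011422, chromosome 19, 43646095 to 43670547, minus strand), was at 268, 258 and 281 CPM in the compound 32 libraries, 125, 129 and 146 CPM in the sunitinib libraries and 181, 176 and 166 CPM in the DMSO libraries. Compound 32 was highest and sunitinib lowest in every library. PLAUR rose with compound 32 (log2 fold change 0.63 ± 0.07, adjusted p = 1.37e-04) and fell with sunitinib (log2 fold change −0.39 ± 0.07, adjusted p = 0.0015), 2.02-fold apart between the compounds. MMP14 (ENSG00000157227, chromosome 14, 22836557 to 22849027, plus strand) was at 840.3, 865 and 864 CPM with compound 32, 532, 563 and 484 CPM with sunitinib and 701, 723 and 699 CPM with DMSO, again without overlap between any groups. MMP14 rose with compound 32 (log2 fold change 0.27 ± 0.07, adjusted p = 0.016) and fell with sunitinib (log2 fold change −0.43 ± 0.07, adjusted p = 5.84e-04). The call with compound 32 was lost when any 1 of the 6 libraries compared was left out, with adjusted p between 0.0528 and 0.0769, and its log2 fold change was then 0.26 to 0.29. Sunitinib replicate 3 is not among those 6 but enters the spread estimated over all 9 libraries. Without it MMP14 was at 0.28 with compound 32 (adjusted p = 1.94e-10). The difference between the compounds was 0.70 ± 0.07 (adjusted p = 9.94e-06), and without sunitinib replicate 3 it was 0.65.

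MMP2, a secreted gelatinase that MMP14 activates, was at 23.5, 24.3 and 20.4 CPM in the compound 32 libraries, 23.4, 24.7 and 22.4 CPM in the sunitinib libraries and 17.1, 17.3 and 19.0 CPM in the DMSO libraries. Both treated groups lay above DMSO in every library. It rose with compound 32 (log2 fold change 0.35 ± 0.10, adjusted p = 0.0215) and with sunitinib (log2 fold change 0.40 ± 0.10, adjusted p = 0.00605). The compound 32 call was lost without compound 32 replicate 1 or 2 or DMSO replicate 1 or 2 (log2 fold change 0.30 to 0.33, adjusted p 0.0846 to 0.1). Without sunitinib replicate 3 the rise with compound 32 was 0.35 (adjusted p = 7.52e-04). Between the compounds MMP2 was at −0.05, 95% interval −0.25 to 0.16. MMP9, the other gelatinase, was at 9.70, 6.95 and 8.55 CPM with compound 32, 7.09, 6.51 and 4.75 CPM with sunitinib and 7.39, 9.17 and 9.07 CPM with DMSO. It fell with sunitinib (log2 fold change −0.48 ± 0.18, adjusted p = 0.0491), without overlap between the groups. Without sunitinib replicate 3 its log2 fold change was −0.33 (adjusted p = 0.0686), and the call was also lost without compound 32 replicate 1 or 3, sunitinib replicate 2, or DMSO replicate 2 or 3 (adjusted p 0.0501 to 0.135). MMP9 overlaps SLC12A5-AS1 over 18.4% of its length. MMP1, an interstitial collagenase, had 5 to 16 counts per library and was called in no comparison.

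TIMP1, an inhibitor of metalloproteases, was at 33.9, 35.4 and 38.9 CPM in the compound 32 libraries, 37.0, 41.2 and 55.3 CPM in the sunitinib libraries and 28.5, 32.7 and 28.2 CPM in the DMSO libraries. It rose with sunitinib (log2 fold change 0.58 ± 0.13, adjusted p = 0.00542), with all 3 sunitinib libraries above all DMSO libraries. Without replicate 3, its highest library, the log2 fold change was 0.39 (adjusted p = 4.11e-05). With compound 32 against DMSO it was 0.27 ± 0.14 (adjusted p = 0.177) and 0.28 (adjusted p = 0.0015) without sunitinib replicate 3. TIMP2 was at 363, 363 and 369 CPM with compound 32, 347, 341 and 305 CPM with sunitinib and 328, 339.7 and 338 CPM with DMSO and was called in no comparison, although without sunitinib replicate 3 it was called higher with compound 32 (0.12, adjusted p = 0.00243).

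Of 4 cell surface receptors, 2 rose with compound 32 and 1 fell with sunitinib, PLAUR being in both counts. Over all genes tested, 12% rose with compound 32 and 19.9% fell with sunitinib. With sunitinib replicate 3 left out, 3 receptors fell with sunitinib, against 26.3% of all genes. ITGA5, the alpha chain of the fibronectin receptor, was at 405, 428 and 430.1 CPM in the compound 32 libraries, 325, 323 and 251 CPM in the sunitinib libraries and 326, 334 and 346 CPM in the DMSO libraries. ITGA5 rose with compound 32 (log2 fold change 0.33 ± 0.09, adjusted p = 0.0252) and was higher than with sunitinib (log2 fold change 0.49 ± 0.09, adjusted p = 0.00105). Against DMSO the call was lost without any 1 of the 6 libraries compared (log2 fold change 0.31 to 0.35, adjusted p 0.0576 to 0.102). Without sunitinib replicate 3, which is not among those 6, ITGA5 was at 0.33 with compound 32 (adjusted p = 1.27e-11). ITGB1, the beta chain that pairs with many alpha chains, was at 1227, 1230.2 and 1168 CPM with compound 32, 1198, 1168 and 1270.1 CPM with sunitinib and 1259, 1268 and 1251 CPM with DMSO, and its difference between the compounds was −0.00, 95% interval −0.15 to 0.14. CD44, the hyaluronan receptor, was at 1048, 1061 and 1070.1 CPM in the compound 32 libraries, 981, 969 and 1079 CPM in the sunitinib libraries and 1022, 1040.2 and 1041 CPM in the DMSO libraries and, like ITGB1, was called in no comparison with all libraries (0.07, 95% interval −0.08 to 0.22 between the compounds). Without sunitinib replicate 3, both were called lower with sunitinib, CD44 at −0.09 (adjusted p = 0.0274) and ITGB1 at −0.09 (adjusted p = 0.0205), and CD44 was called higher with compound 32 than with sunitinib (0.12, adjusted p = 0.00142). FN1, the ligand of ITGA5 with ITGB1, was at 574, 543 and 512 CPM in the compound 32 libraries, 524, 580.0 and 409.6 CPM in the sunitinib libraries and 573, 605 and 652 CPM in the DMSO libraries. It was called in no comparison with all libraries, at −0.17 ± 0.11 with compound 32 (adjusted p = 0.33) and −0.27 ± 0.11 with sunitinib (adjusted p = 0.072). FBN1, a fibrillin that forms microfibrils, was at 103, 98.4 and 93.4 CPM with compound 32, 94.1, 91.0 and 63.5 CPM with sunitinib and 82.6, 72.3 and 78.5 CPM with DMSO. The fibrillins FBN1 and FBN2 were called in none either with all libraries, although without sunitinib replicate 3 FBN1 was higher with compound 32 (0.34, adjusted p = 1.46e-07).

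**Figure D3:**
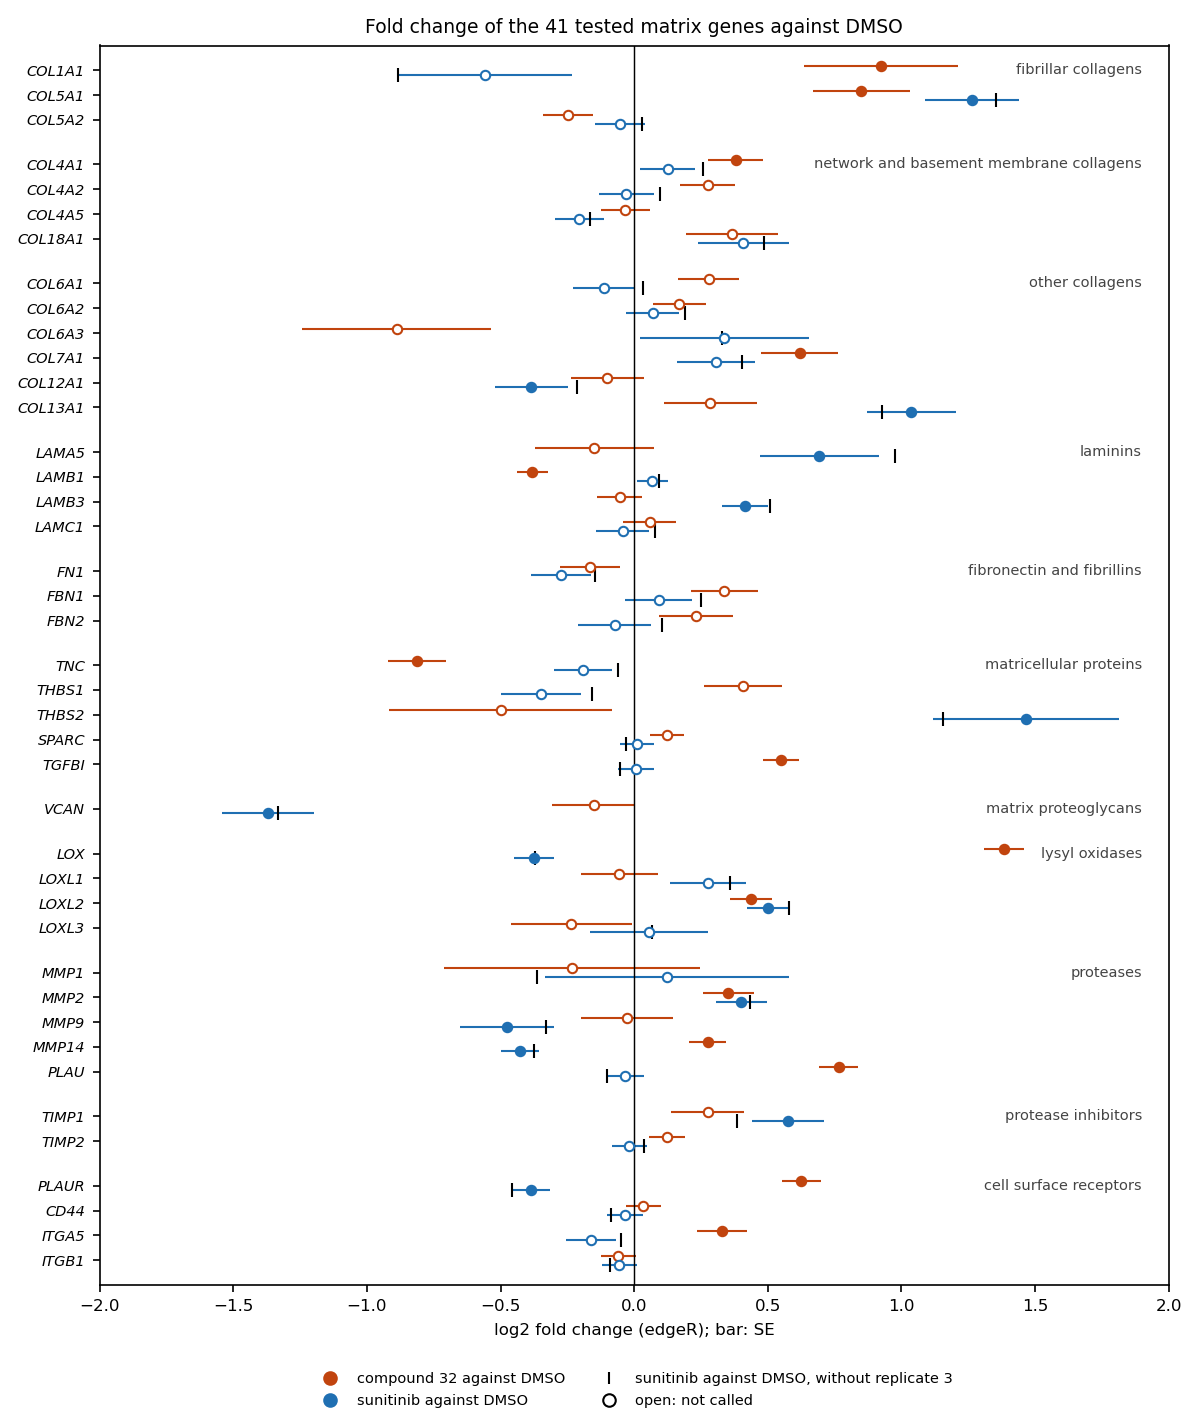
Log2 fold change against DMSO of the 41 tested matrix genes, by role, for compound 32 and sunitinib, with the SE as bars, filled symbols for called genes and a tick for sunitinib without replicate 3. LOX, at 1.38, is highest with compound 32, VCAN, at −1.37, is lowest with sunitinib, and LAMA5 with sunitinib is at 0.69 with all libraries and at 0.98 without replicate 3.

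Of 4 tested laminin chains, 1 fell with compound 32, 2 rose with sunitinib and 3 were lower with compound 32 than with sunitinib. The shares of all genes tested were 10.3%, 20.3% and 25.2% in the same order. With sunitinib replicate 3 left out, 2 laminin chains fell with compound 32, against 20.5% of all genes. LAMB3, a beta chain of epithelial laminin (ENSG00000196878, chromosome 1, 209614870 to 209652466, minus strand), was at 817, 804 and 833 CPM in the compound 32 libraries, 1215, 1204 and 978 CPM in the sunitinib libraries and 849, 837 and 862 CPM in the DMSO libraries. Replicate 3 was the lowest sunitinib library and still above every other library. LAMB3 rose with sunitinib (log2 fold change 0.41 ± 0.08, adjusted p = 0.00242), and with compound 32 it was −0.05 ± 0.08 (adjusted p = 0.704). It was lower with compound 32 than with sunitinib (log2 fold change −0.47 ± 0.08, adjusted p = 7.86e-04). LAMA5, an alpha chain of adult basement membranes (ENSG00000130702, chromosome 20, 62307955 to 62367312, minus strand), was at 202, 216 and 201 CPM with compound 32, 437, 465 and 208 CPM with sunitinib and 223, 226 and 238 CPM with DMSO. Sunitinib replicates 1 and 2 lay above every other library, while replicate 3 lay within the range of compound 32 and below DMSO. LAMA5 rose with sunitinib (log2 fold change 0.69 ± 0.22, adjusted p = 0.0289), a call lost without sunitinib replicate 1 or 2 or any DMSO replicate (log2 fold change 0.49 to 0.71, adjusted p 0.0644 to 0.115). Without replicate 3 it was 0.98 (adjusted p = 6.27e-28). Between the compounds LAMA5 was at −0.84 ± 0.22 (adjusted p = 0.00901), and −1.12 without replicate 3. That call was lost in 1 of 20 alternatives (adjusted p = 0.111). LAMB1, a beta chain found in most basement membranes (ENSG00000091136, chromosome 7, 107923799 to 108003255, minus strand), was at 184, 183 and 188 CPM in the compound 32 libraries, 253, 261 and 244 CPM in the sunitinib libraries and 247, 237 and 239.7 CPM in the DMSO libraries and fell with compound 32 (log2 fold change −0.38 ± 0.06, adjusted p = 8.25e-04), without overlap with either other group. It was lower than with sunitinib (log2 fold change −0.45 ± 0.06, adjusted p = 6.97e-05). LAMC1, the gamma chain shared by most laminins, was at 459, 455 and 432 CPM with compound 32, 446, 464 and 345 CPM with sunitinib and 425, 417 and 451 CPM with DMSO. It was called in no comparison and lay at 0.10, 95% interval −0.12 to 0.32 between the compounds.

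COL4A1 and COL4A2 encode the chains of the main basement membrane collagen, and their RefSeq starts lie on either side of the stretch printed above. COL4A1 (ENSG00000187498, chromosome 13, 110148963 to 110307233, minus strand) was at 241, 243 and 238 CPM in the compound 32 libraries, 216, 227 and 162 CPM in the sunitinib libraries and 187, 183 and 184 CPM in the DMSO libraries. COL4A1 rose with compound 32 (log2 fold change 0.38 ± 0.10, adjusted p = 0.0206), and the call was lost when any 1 of the 6 libraries compared was left out (log2 fold change 0.37 to 0.39, adjusted p 0.0642 to 0.0776). Without sunitinib replicate 3, which is not among those 6, it was at 0.38 (adjusted p = 1.36e-12). With sunitinib COL4A1 was at 0.13 ± 0.10 (adjusted p = 0.353), and without replicate 3 it was called higher (0.26, adjusted p = 6.54e-07). COL4A2 (ENSG00000134871, chromosome 13, 110305812 to 110513209, plus strand) was at 385, 389 and 389 CPM with compound 32, 331, 356 and 256 CPM with sunitinib and 327, 305 and 329.9 CPM with DMSO. Its change with compound 32 was 0.28 ± 0.10 (adjusted p = 0.0775), and it was higher with compound 32 than with sunitinib (log2 fold change 0.30 ± 0.10, adjusted p = 0.0282), and 0.18 without sunitinib replicate 3. That call was lost without any 1 compound 32 library (0.31, adjusted p 0.066 to 0.0717). In sunitinib replicate 3 both genes were the lowest of all 9 libraries. The ratio of COL4A1 to COL4A2 per length was 0.80 to 0.82 with compound 32, 0.83 to 0.85 with sunitinib and 0.73 to 0.79 with DMSO. COL4A5, a further basement membrane chain, was at 16.6, 14.8 and 15.4 CPM in the compound 32 libraries, 14.3, 14.1 and 13.0 CPM in the sunitinib libraries and 16.4, 15.5 and 16.0 CPM in the DMSO libraries. COL4A5 and COL18A1 were called in no comparison with all libraries. Without sunitinib replicate 3, COL18A1 (0.49, adjusted p = 0.0164) and COL4A2 (0.10, adjusted p = 0.0394) were called higher with sunitinib, so that 3 of 4 tested network and basement membrane collagens were, against 0 with all libraries by edgeR. Over all genes, 25.1% were called higher with sunitinib in that fit and 20.3% with all libraries. COL18A1 overlaps SLC19A1, itself at 75.9 CPM, over 16.4% of its length.

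Of 3 tested fibrillar collagens, 2 rose with compound 32 and 1 with sunitinib, where 12% and 20.3% of all genes tested rose. COL5A1, which starts and limits collagen fibrils, was at 8.79, 7.82 and 8.25 CPM in the compound 32 libraries, 11.2, 12.3 and 9.62 CPM in the sunitinib libraries and 5.77, 3.36 and 4.70 CPM in the DMSO libraries. COL5A1 rose with compound 32 (log2 fold change 0.85 ± 0.18, adjusted p = 0.00614) and with sunitinib (log2 fold change 1.27 ± 0.18, adjusted p = 1.89e-04). The groups did not overlap, and the difference between the compounds was −0.42, 95% interval −0.78 to −0.05 (adjusted p = 0.0553). COL5A2, its partner chain and the highest fibrillar collagen, was at 32.9, 29.4 and 29.3 CPM with compound 32, 36.1, 38.1 and 30.6 CPM with sunitinib and 37.6, 36.0 and 35.2 CPM with DMSO and was called in none with all 9 libraries. COL1A1, the main chain of type I collagen, had 32, 48 and 61 counts with compound 32, 16, 13 and 23 with sunitinib and 22, 23 and 28 with DMSO. COL1A1 rose with compound 32 (log2 fold change 0.92 ± 0.29, adjusted p = 0.0394), a call lost without compound 32 replicate 2 or 3 or any DMSO replicate (log2 fold change 0.72 to 1.05, adjusted p 0.0662 to 0.165), and was higher than with sunitinib (log2 fold change 1.48 ± 0.30, adjusted p = 0.00173). Without sunitinib replicate 3 the rise with compound 32 against DMSO was 0.93 (adjusted p = 0.00371). COL1A2, the other chain of type I collagen, had 29 counts in all and did not pass the filter.

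Of the 6 remaining collagens, 1 rose with compound 32, and with sunitinib 1 rose and 1 fell. The shares of all genes tested were 12%, 20.3% and 19.9% in the same order. COL13A1, a transmembrane collagen at cell junctions, was at 7.18, 4.76 and 5.74 CPM in the compound 32 libraries, 8.95, 9.49 and 11.4 CPM in the sunitinib libraries and 5.25, 4.92 and 4.31 CPM in the DMSO libraries and rose with sunitinib (log2 fold change 1.04 ± 0.17, adjusted p = 5.21e-04). Compound 32 was lower than sunitinib by 1.68-fold (log2 fold change −0.75 ± 0.16, adjusted p = 0.00262). COL7A1, the anchoring fibril collagen, was at 13.5, 15.3 and 11.0 CPM with compound 32, 12.0, 10.9 and 9.10 CPM with sunitinib and 9.08, 8.21 and 8.62 CPM with DMSO and rose with compound 32 (log2 fold change 0.62 ± 0.14, adjusted p = 0.0101), a call lost without compound 32 replicate 2 (0.50, adjusted p = 0.053). Without sunitinib replicate 3 that rise was 0.62 (adjusted p = 2.06e-05). COL12A1, which binds the surface of fibrils, was at 80.6, 85.5 and 73.2 CPM in the compound 32 libraries, 73.0, 74.6 and 48.6 CPM in the sunitinib libraries and 89.1, 79.4 and 88.1 CPM in the DMSO libraries. It fell with sunitinib (log2 fold change −0.39 ± 0.14, adjusted p = 0.0427), at −0.21 without replicate 3, its lowest library, and the call was lost without any 1 compound 32 or DMSO library (log2 fold change −0.44 to −0.36, adjusted p 0.053 to 0.114). COL6A2, the highest collagen, was at 577, 577 and 599 CPM with compound 32, 582, 607 and 447 CPM with sunitinib and 511, 522 and 528 CPM with DMSO and was called in no comparison with all libraries. COL6A1, its partner chain in beaded filaments, was at 449, 443 and 435 CPM in the compound 32 libraries, 361, 387 and 263 CPM in the sunitinib libraries and 351, 367 and 376 CPM in the DMSO libraries, with sunitinib replicate 3 the lowest of all. It was higher with compound 32 than with sunitinib (log2 fold change 0.39 ± 0.12, adjusted p = 0.0142), and 0.25 without replicate 3. That call was lost in 1 of 20 alternatives (adjusted p = 0.0533). COL6A3 had 285 counts in all and was lower with compound 32 than with sunitinib (log2 fold change −1.23 ± 0.34, adjusted p = 0.0113), a call lost without compound 32 replicate 3 (−0.94, adjusted p = 0.0524).

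Of 5 matricellular proteins, which sit in the matrix and modulate contacts rather than build it, 1 rose and 1 fell with compound 32 and 1 rose with sunitinib. The shares of all genes tested were 12%, 10.3% and 20.3% in the same order. TNC, a protein of remodelling tissue (ENSG00000041982, chromosome 9, 115019578 to 115118257, minus strand), was at 257, 268 and 237 CPM in the compound 32 libraries, 421, 435 and 315 CPM in the sunitinib libraries and 438, 436 and 463 CPM in the DMSO libraries. The compound 32 libraries were below all others. TNC fell with compound 32 (log2 fold change −0.81 ± 0.11, adjusted p = 3.52e-04) and was lower than with sunitinib (log2 fold change −0.62 ± 0.11, adjusted p = 6.30e-04). TGFBI, a TGF-beta induced adhesion protein (ENSG00000120708, chromosome 5, 136028895 to 136063818, plus strand), was at 123, 119.8 and 120.4 CPM with compound 32, 77.5, 82.0 and 89.9 CPM with sunitinib and 82.2, 81.5 and 84.3 CPM with DMSO and rose with compound 32 (log2 fold change 0.55 ± 0.07, adjusted p = 1.85e-04), while with sunitinib it was 0.01 ± 0.07. Between the compounds it was 0.54 ± 0.07 (adjusted p = 4.73e-05). THBS1, an inhibitor of angiogenesis, was at 72.7, 65.2 and 66.1 CPM in the compound 32 libraries, 44.0, 48.0 and 28.6 CPM in the sunitinib libraries and 50.9, 48.3 and 54.6 CPM in the DMSO libraries, with sunitinib replicate 3 the lowest of all. It was higher with compound 32 than with sunitinib (log2 fold change 0.76 ± 0.15, adjusted p = 0.0014), and 0.57 without replicate 3. THBS2, of the same family, had 14, 7 and 16 counts with compound 32, 42, 43 and 65 with sunitinib and 11, 24 and 17 with DMSO, and rose with sunitinib (log2 fold change 1.46 ± 0.35, adjusted p = 0.00595). It was lower with compound 32 than with sunitinib (log2 fold change −1.96 ± 0.37, adjusted p = 9.71e-04). SPARC, which binds collagen, was at 434, 442 and 458 CPM with compound 32, 394, 406 and 432 CPM with sunitinib and 399, 418 and 408 CPM with DMSO and was called in no comparison with all libraries. VCAN, a large proteoglycan that binds hyaluronan, was at 5.43, 6.26 and 4.30 CPM in the compound 32 libraries, 2.22, 2.48 and 2.15 CPM in the sunitinib libraries and 5.84, 6.06 and 5.85 CPM in the DMSO libraries and fell with sunitinib by 2.59-fold (log2 fold change −1.37 ± 0.17, adjusted p = 9.14e-05), with no overlap with either other group. It was higher with compound 32 than with sunitinib (log2 fold change 1.22 ± 0.17, adjusted p = 1.45e-04).

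A total of 8 matrix genes had 10 or more counts in all but did not pass the filter: COL1A2, COL8A1, LAMA1, LAMA4, LUM, BGN, MMP3 and TIMP3, with 14 to 73 counts over the 9 libraries. COL3A1, POSTN and DCN, genes of fibroblast matrix, had 2, 3 and 1 counts and are not described further. With the filter set at 10 or more counts in all, none of the 8 was called in any comparison. The smallest adjusted p among them was 0.073 by edgeR, for COL1A2 between the compounds (log2 fold change −2.24), with 1, 1 and 1 counts with compound 32 and 1, 6 and 9 with sunitinib.

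**Figure D4:**
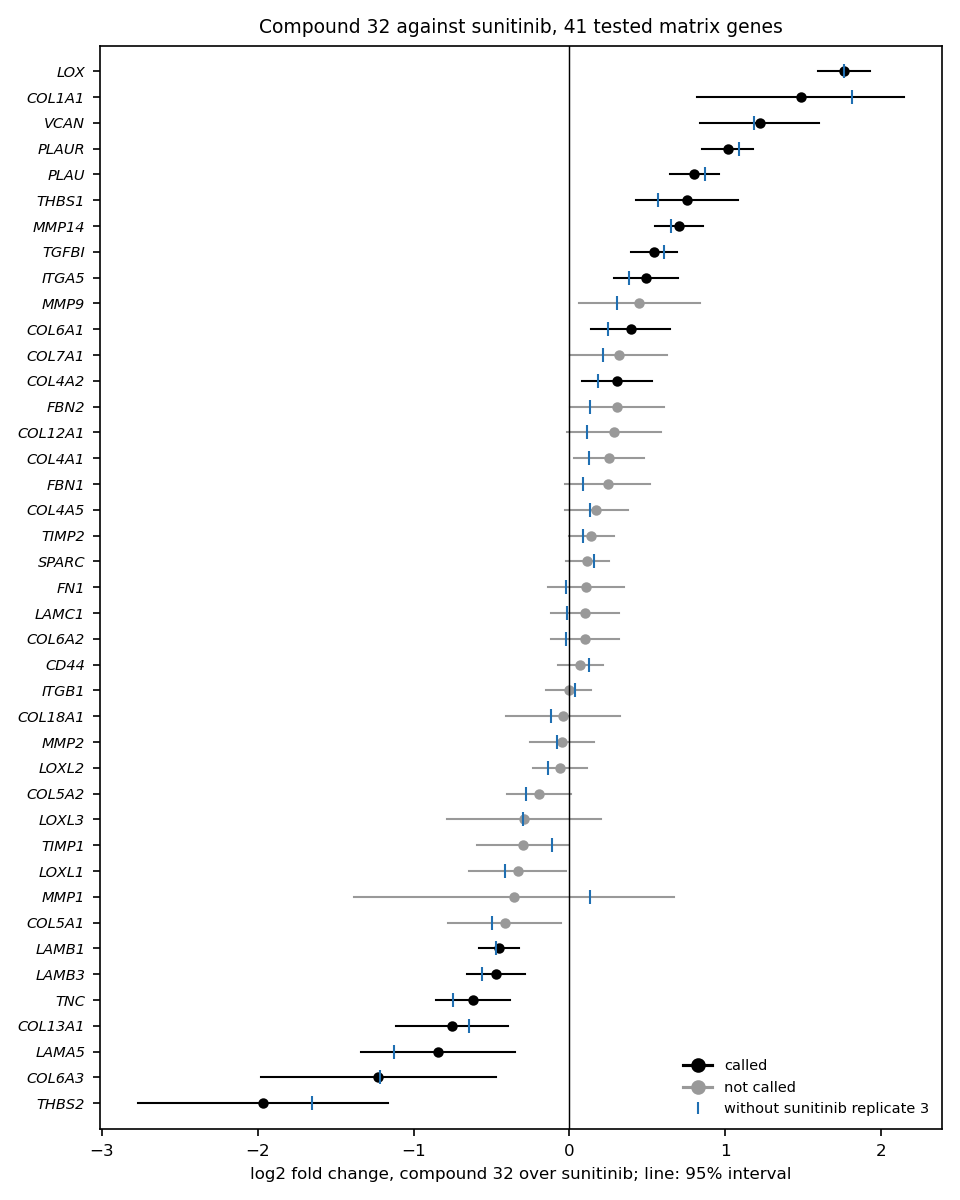
Log2 fold change of compound 32 over sunitinib for the 41 tested matrix genes with 95% intervals, black where called, and a blue tick for the value without sunitinib replicate 3. LOX, at 1.76, is highest, and THBS2, at −1.96, lowest.

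Between the 2 compounds, 1 pair was compared at the same time, and 23 of the 41 genes were not called. Over all genes tested, 7734 of 15232 were not called. For those not called, the intervals show what difference the data still allow. ITGB1 lay within −0.15 to 0.14, and CD44, SPARC, TIMP2 and LOXL2 likewise had no bound beyond 0.29. MMP1 had the widest interval, from −1.38 to 0.67. Of these, CD44, SPARC, TIMP2 and LOXL2 were called without sunitinib replicate 3, as given above.

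Sunitinib replicate 3 was compared with the mean of replicates 1 and 2 in 10728 genes at 5 CPM or more. Genes were split at the quartiles of length of all 15232 genes tested, which put 1596, 2776, 3069 and 3287 of the 10728 in the classes from shortest to longest. The median log2 ratio of replicate 3 in these classes was 0.30, 0.10, −0.04 and −0.19. In compound 32 the same ratio ran from 0.06 to −0.04 and in DMSO from −0.06 to 0.02. The 35 matrix genes at this level had a median of −0.28, with 27 of 35 below 0, against a median of −0.00 and 5424 of 10728 below 0 over all genes. A total of 19 of the 35 were in the longest class, against 3287 of 10728, and their median length was 7577 bases, against 5308 bases over all 10728 genes. LAMA5 at −1.11 and THBS1 at −0.68 were lowest, and TIMP1, with a length of 1541 bases, was highest at 0.50. Across genes, which are not independent and share the library, Spearman's rho with length was −0.44 over all genes and −0.52 over the matrix genes. With each library corrected for gene length, an alternative chosen after seeing the data, 11 matrix genes were called higher and 6 lower with sunitinib against DMSO, where 19.9% and 21.5% of all genes were, and all 14 calls made without the correction were kept.

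**Figure D5:**
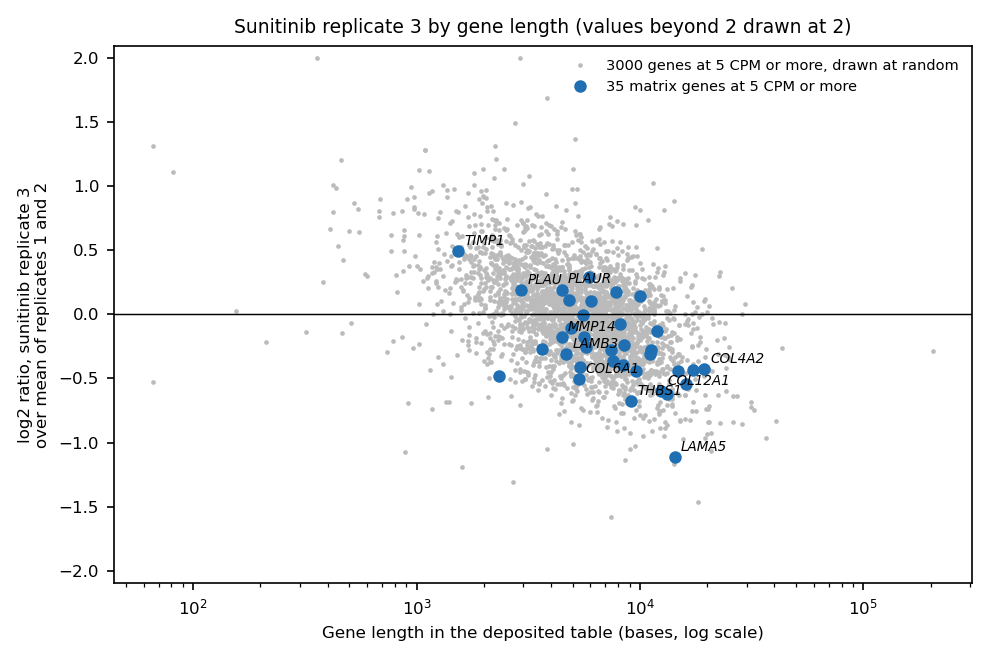
Log2 ratio of sunitinib replicate 3 over the mean of sunitinib replicates 1 and 2 against gene length, for 35 matrix genes over 3000 genes drawn at random. The matrix genes run from 0.50 in TIMP1 to −1.11 in LAMA5, and 27 of 35 lie below 0.

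Other genes of the pathway, which are not among the 52, were counted by list. The lists too were chosen with earlier results of these data known. Of 26 tested genes for collagen hydroxylation, folding and processing, 8 rose and 0 fell with compound 32 by edgeR, with a median log2 fold change of 0.11. At an unadjusted p under 0.05, 1 was lower, and DESeq2 and limma voom called 0 lower. With sunitinib 7 rose and 5 fell, at a median of −0.01, and 11 were higher and 5 lower with compound 32 than with sunitinib. Leaving out sunitinib replicate 3 gave 12 higher and 2 lower with compound 32, 7 and 8 with sunitinib, and 11 and 6 between the compounds, with medians of 0.12, 0.02 and 0.16. Over all genes tested, 12% rose and 10.3% fell with compound 32, and 20.3% and 19.9% with sunitinib. Between the compounds 24.1% of all genes were higher and 25.2% lower. Without that replicate the shares were 21.6% and 20.5%, 25.1% and 26.3%, and 29.7% and 29%. P4HA1, a prolyl 4-hydroxylase subunit that modifies collagen chains, was at 233, 224 and 228 CPM in the compound 32 libraries, 74.7, 69.4 and 87.2 CPM in the sunitinib libraries and 73.3, 66.3 and 78.3 CPM in the DMSO libraries, and rose with compound 32 (log2 fold change 1.65 ± 0.09, adjusted p = 4.21e-07). P4HA2, of the same family, was at 82.3, 79.5 and 85.4 CPM with compound 32, 34.4, 32.8 and 31.7 CPM with sunitinib and 37.6, 35.7 and 36.1 CPM with DMSO and also rose (log2 fold change 1.18 ± 0.07, adjusted p = 5.77e-07). PLOD2, a lysyl hydroxylase that prepares collagen for cross-linking, was at 1849, 1820.2 and 1696 CPM in the compound 32 libraries, 751, 733 and 762 CPM in the sunitinib libraries and 1072, 1031 and 1015 CPM in the DMSO libraries, rose with compound 32 (log2 fold change 0.78 ± 0.07, adjusted p = 1.19e-05) and fell with sunitinib (log2 fold change −0.47 ± 0.07, adjusted p = 1.97e-04). SERPINH1, the collagen chaperone, was at 181, 175 and 174 CPM with compound 32, 320.0, 333 and 321 CPM with sunitinib and 184, 191 and 181 CPM with DMSO and rose with sunitinib (log2 fold change 0.81 ± 0.06, adjusted p = 1.42e-06). P3H2, a prolyl 3-hydroxylase, rose with compound 32 (log2 fold change 0.46 ± 0.07, adjusted p = 0.00113) and fell with sunitinib (log2 fold change −0.59 ± 0.08, adjusted p = 1.06e-04). ADAMTS3, a procollagen peptidase, fell with sunitinib (log2 fold change −1.14 ± 0.15, adjusted p = 1.50e-04).

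Among 32 other matrix proteases and inhibitors, 5 rose and 0 fell with compound 32 by edgeR, 12 rose and 8 fell with sunitinib, and 9 were higher and 9 lower between the compounds. The medians were 0.07, 0.13 and −0.09 in the order compound 32 against DMSO, sunitinib against DMSO and compound 32 against sunitinib. With compound 32, 2 were lower at an unadjusted p under 0.05, and DESeq2 and limma voom called 0. In the fit that leaves out sunitinib replicate 3, 8 were higher and 4 lower with compound 32, 13 and 8 with sunitinib, and 9 and 14 between the compounds, with medians of 0.07, 0.08 and −0.07. The shares over all genes tested were 12% and 10.3%, 20.3% and 19.9%, and 24.1% and 25.2% in the same order. Without that replicate they were 21.6% and 20.5%, 25.1% and 26.3%, and 29.7% and 29%. ADAMTS6, a secreted metalloprotease, rose with compound 32 (log2 fold change 1.00 ± 0.06, adjusted p = 1.36e-06) and fell with sunitinib (log2 fold change −0.39 ± 0.06, adjusted p = 6.22e-04). PLAT, the tissue plasminogen activator, rose with compound 32 (log2 fold change 1.25 ± 0.10, adjusted p = 7.80e-06) and with sunitinib (log2 fold change 1.27 ± 0.10, adjusted p = 2.71e-06). ADAMTS1 fell with sunitinib (log2 fold change −1.05 ± 0.07, adjusted p = 9.46e-07), and TIMP4 rose (log2 fold change 1.94 ± 0.16, adjusted p = 3.88e-06).

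Of 33 other matrix glycoproteins and proteoglycans, 12 rose and 2 fell with compound 32, 10 rose and 5 fell with sunitinib, and 13 were higher and 8 lower between the compounds, with medians of 0.33, 0.15 and 0.13 in the same order. With that replicate left out these were 21 and 2, 12 and 6, and 14 and 11, with medians of 0.33, 0.11 and 0.08. For this list and those below, the shares over all genes tested were 12% and 10.3%, 20.3% and 19.9%, and 24.1% and 25.2%. Without that replicate they were 21.6% and 20.5%, 25.1% and 26.3%, and 29.7% and 29%. SDC4, a cell surface heparan sulphate proteoglycan, rose with compound 32 (log2 fold change 0.81 ± 0.06, adjusted p = 5.24e-06). SDC1 fell with sunitinib (log2 fold change −0.84 ± 0.07, adjusted p = 2.47e-06) and THBS3 rose (log2 fold change 1.54 ± 0.14, adjusted p = 9.30e-06). Of 9 tested other collagens, 0 rose and 0 fell with compound 32 by edgeR, DESeq2 or limma voom, with 0 higher and 1 lower at an unadjusted p under 0.05. Between the compounds 3 were higher and 2 lower, and the medians were −0.04, −0.04 and −0.27. The counts were the same with sunitinib replicate 3 left out, and the medians were then −0.04, −0.25 and 0.01, the last with the opposite sign. With sunitinib 2 rose and 3 fell, COL27A1, a fibrillar collagen, at −0.42 (adjusted p = 0.00371). Of 24 other integrins and matrix receptors, 4 rose and 4 fell with compound 32, 5 rose and 5 fell with sunitinib, and 7 were higher and 6 lower between the compounds, with medians of −0.01, −0.04 and 0.05. In that fit these were 8 and 7, 8 and 6, and 7 and 11, with medians of −0.01, 0.09 and −0.11, of which the last 2 have the opposite sign. DDR2, a collagen-binding receptor kinase, was at 129, 124 and 115 CPM with compound 32, 284, 284 and 223 CPM with sunitinib and 162, 145 and 158 CPM with DMSO. It fell with compound 32 (log2 fold change −0.34 ± 0.10, adjusted p = 0.0252) and rose with sunitinib (log2 fold change 0.76 ± 0.10, adjusted p = 9.19e-05). HMMR, a hyaluronan-binding protein that is also a gene of dividing cells, fell with compound 32 (log2 fold change −1.17 ± 0.11, adjusted p = 2.99e-05) and with sunitinib (log2 fold change −0.45 ± 0.11, adjusted p = 0.00646).

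Of 29 genes of TGF-beta and YAP signalling, 9 rose and 3 fell with compound 32, 8 rose and 6 fell with sunitinib, and 14 were higher and 4 lower between the compounds, with medians of 0.22, 0.08 and 0.20. The fit that leaves out sunitinib replicate 3 gave 15 and 3, 12 and 8, and 14 and 6, with medians of 0.23, 0.12 and 0.16. In the same order, the shares over all genes tested were 12% and 10.3%, 20.3% and 19.9%, and 24.1% and 25.2%. Without that replicate they were 21.6% and 20.5%, 25.1% and 26.3%, and 29.7% and 29%. CTGF, a target of both pathways, was at 354, 322 and 354 CPM in the compound 32 libraries, 265, 265 and 296 CPM in the sunitinib libraries and 165, 161 and 158 CPM in the DMSO libraries and rose with compound 32 (log2 fold change 1.09 ± 0.07, adjusted p = 1.39e-06) and with sunitinib (log2 fold change 0.77 ± 0.07, adjusted p = 7.93e-06). WWTR1, the YAP paralogue TAZ, rose with compound 32 (log2 fold change 0.54 ± 0.06, adjusted p = 1.46e-04), and SMURF2, a ubiquitin ligase that limits TGF-beta signalling, fell (log2 fold change −0.59 ± 0.06, adjusted p = 5.09e-05). TGFBR3, a TGF-beta co-receptor, rose with compound 32 (log2 fold change 0.48 ± 0.12, adjusted p = 0.0169) and fell with sunitinib (log2 fold change −0.83 ± 0.13, adjusted p = 4.40e-04).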

How the data were processed

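RNA from HEYA8 cells was enriched with oligo(dT) and sequenced, per the labels' protocols. Raw counts per gene were deposited by the authors. The submitters' processing notes name, without roles, featureCounts, fastp, edgeR, DESeq2 and HISAT2 2.0.5. Builds mm10 and hg38 are both listed, and all 58735 genes have the coordinates of GENCODE 29 on GRCh38. Strand setting and the handling of reads shared by genes are not given by the labels or headers. The deposited gene length, given by the authors in bases, equals the union of GENCODE 29 exons for all 52 matrix genes.

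Counts were analysed with edgeR 4.0.16 in R 4.3.3 (TMM factors, filterByExpr, robust quasi-likelihood F test, 9 libraries, 6 residual degrees of freedom). Library totals were 15498101 to 18006171 counts, and their number limits precision for genes of few counts. Alternatives were other factors, filters, thresholds and library subsets, limma 3.58.1 voom, DESeq2 1.42.0 and a replicate block. The members and lists were chosen with earlier results of these data known. Values of every library are given for called genes with a mean of at least 5 CPM and no overlap between groups (the 8 with the largest change in each direction against DMSO, 6 between compounds) and for the highest gene of each role per length. From each list up to 3 called genes with the smallest p were taken per comparison. One gene that this rule names is not reported here. COL1A1, LAMA5, THBS2, ITGA5, CD44, FBN1, LAMC1, LOXL1, COL4A5, FBN2, COL6A1, COL6A3 and MMP1 were added after their values were seen.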

Additional observations from a re-analysis of the deposited data

How the results depend on the processing

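Of the matrix genes called with all 9 libraries, 6 of 12 higher and 2 of 2 lower with compound 32 against DMSO kept their call under every alternative run other than the stricter threshold. With sunitinib against DMSO these were 7 of 8 and 4 of 6, and with compound 32 against sunitinib 9 of 11 and 5 of 7. The same share over all called genes is not given here, so kept calls do not set the matrix genes apart from other genes. Leaving out 1 library at a time gave 6 to 21 higher and 2 to 6 lower with compound 32, 7 to 15 higher and 4 to 10 lower with sunitinib, and 10 to 16 higher and 7 to 11 lower between the compounds. The highest of these counts came without sunitinib replicate 3. In the same fits, 7.44 to 21.6% of all genes were higher and 6.17 to 20.5% lower with compound 32. With sunitinib the shares were 14.5 to 25.1% and 15.7 to 26.3%, and between the compounds 20.3 to 29.7% and 20.2 to 29%. With only the 6 libraries compared, 21 were higher and 6 lower with compound 32 against DMSO, against 22.4% and 21.5% of all genes, and at an adjusted p under 0.01, 6 were higher, against 6.41%. With upper-quartile factors 11 were lower between the compounds, against 30.9% of all genes. DESeq2 called 13 higher and 2 lower with compound 32, against 12.5% and 10.2% of all genes. For limma voom these were 12 and 2, against 12% and 10.1%. The fit with a replicate block called 12 and 2 with compound 32, 8 and 5 with sunitinib and 11 and 7 between the compounds. Its shares of all genes were 10.2% and 8.66%, 18.7% and 19.1%, and 23.2% and 23.9%. Deviations of same-numbered libraries from their group means had correlations of −0.077 to 0.061 over all genes. The labels do not say whether the numbers pair the samples, and correlations over all genes cannot settle it.

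A further 2 alternatives were chosen after seeing the data. With the 6 libraries compared and without sunitinib replicate 3, 16 matrix genes were higher and 11 lower with sunitinib, against 26.4% and 27.2% of all genes, and 11 were lower between the compounds, against 29.7%. The correction for gene length called 15 higher and 3 lower with compound 32 (13.4% and 11.8% of all genes), 11 and 6 with sunitinib, and 13 and 9 between the compounds (26% and 24.9%). With sunitinib COL4A2 was at −0.03 with all libraries, at 0.10 without replicate 3 (−0.13 to 0.10 over the fits that leave out 1 library) and at 0.10 with the 6 libraries compared and without replicate 3. In that last setting FBN2 was at 0.10, against −0.07 with all libraries. The cause was not tested. Over all genes, 1830 were higher and 1571 lower with compound 32, against 3359 and 3189 without sunitinib replicate 3, 3258 and 3114 with only the 6 libraries compared, and 977 and 738 at an adjusted p under 0.01. With sunitinib 3090 were higher, and 1857 at an adjusted p under 0.01.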
